A study of Mus musculus with 12 samples.

Results

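The 8 genes described here are Rab35, the ribosomal protein genes Rplp0 and Rps7, 4 annotated processed copies of Rplp0 (Gm8730, Gm9625, Gm14165 and Gm6278) and 1 of Rps7 (Gm6472). They are 8 of the 55487 genes listed for every library, and all 8 were among the 16649 genes that passed the filter on low counts. They were chosen by their levels in these libraries, because Rab35 and the copies were higher in the libraries labelled Yy1-/- Smc3+/- than in the others. Their levels and fold changes are therefore a description, and no test is given for them.

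RNA was sequenced from LSK cells sorted from the bone marrow of mice. LSK cells lack lineage markers, carry Sca1 and c-Kit, and include the haematopoietic stem cells. There were 4 libraries of Yy1-/- Smc3+/- cells, 4 of Yy1-/- cells and 4 of Yy1+/+ cells, the wild-type control, and both mutant groups share the Yy1-/- label. Yy1 encodes a transcription factor with zinc fingers, and Smc3 a subunit of cohesin, the ring that holds DNA in loops and joins sister chromatids. The labels name no Cre driver, age, sex, batch or animal per library.

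Rab35 is a small GTPase of the plasma membrane and of endosomes that directs the recycling of internalised membrane proteins. Rplp0 is the scaffold of the stalk of the large ribosomal subunit, where it holds the acidic stalk proteins, and its mRNA is a common reference in expression assays. Rps7 is a protein of the small ribosomal subunit that also binds Mdm2, the ligase that restrains p53. Processed copies arise when a spliced mRNA is reverse transcribed and inserted elsewhere in the genome, so they carry the exons of the parent without its introns. Reads of a copy and of its parent match both wherever the letters are the same.

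Positions are those of the GENCODE M21 annotation on GRCm38, the assembly also called mm10. Rab35 (ENSMUSG00000029518.15) lies at chr5:115631908-115647736 on the plus strand. Rplp0 (ENSMUSG00000067274.10) lies 68181 bases before it on the same strand, at chr5:115559467-115563727, and Rps7 (ENSMUSG00000061477.4) at chr12:28630854-28635953 on the minus strand. The 5 copies are on 5 other chromosomes. They are Gm8730 (ENSMUSG00000063696.7, chr8:102864845-102865798, minus strand), Gm9625 (ENSMUSG00000097906.1, chr13:67810246-67811200, plus strand), Gm14165 (ENSMUSG00000081434.3, chr2:152353615-152354566, plus strand), Gm6278 (ENSMUSG00000116972.1, chr16:85644252-85645023, plus strand) and Gm6472 (ENSMUSG00000095597.2, chrX:152909505-152910155, minus strand). The first 4 of them are annotated as processed pseudogenes, and Gm6472 as a transcribed processed pseudogene. Another annotated gene overlaps Gm9625 (4930525G20Rik, antisense), Gm14165 (Gm14164, same strand), Gm6472 (Rpl7a-ps12, same strand) and Rab35 (Mir7030, same strand), and the library kit does not mark the strand.

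The sequences are shown because a read can be told to come from a copy only where the letters differ. All are from the GENCODE M21 transcripts, 5′ to 3′, and capitals mark bases of the copy that differ from the parent. The first block covers positions 61 to 200 of the Rplp0 coding sequence, counted from 1 at the A of its start codon.
Rplp0: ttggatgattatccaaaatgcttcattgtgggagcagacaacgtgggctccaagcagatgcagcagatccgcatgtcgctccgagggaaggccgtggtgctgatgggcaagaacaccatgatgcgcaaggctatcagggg
Gm8730: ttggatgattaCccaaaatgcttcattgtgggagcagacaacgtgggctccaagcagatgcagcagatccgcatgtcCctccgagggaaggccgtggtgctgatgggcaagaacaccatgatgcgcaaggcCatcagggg
Gm9625: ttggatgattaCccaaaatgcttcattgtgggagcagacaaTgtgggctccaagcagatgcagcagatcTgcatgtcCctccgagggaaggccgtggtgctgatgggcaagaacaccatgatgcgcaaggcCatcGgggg
Gm14165: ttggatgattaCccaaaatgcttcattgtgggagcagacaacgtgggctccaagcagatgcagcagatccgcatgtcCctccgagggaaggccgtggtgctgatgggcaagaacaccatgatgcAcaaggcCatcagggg
The differences in Gm8730 are T72C, G138C and T192C, each written as the base of Rplp0, the position and the base of the copy, and Gm9625 and Gm14165 share all of them. The second block covers positions 290 to 400, where Gm6278 is also aligned.
Rplp0: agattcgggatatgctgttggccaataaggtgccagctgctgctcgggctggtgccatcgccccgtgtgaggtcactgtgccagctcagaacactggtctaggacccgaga
Gm8730: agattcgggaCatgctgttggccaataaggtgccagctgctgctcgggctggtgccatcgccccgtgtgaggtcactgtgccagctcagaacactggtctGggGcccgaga
Gm9625: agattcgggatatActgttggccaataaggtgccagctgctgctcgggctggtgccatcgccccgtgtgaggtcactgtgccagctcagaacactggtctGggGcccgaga
Gm14165: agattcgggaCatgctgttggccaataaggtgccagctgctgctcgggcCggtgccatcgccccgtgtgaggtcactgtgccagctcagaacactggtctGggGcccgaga
Gm6278: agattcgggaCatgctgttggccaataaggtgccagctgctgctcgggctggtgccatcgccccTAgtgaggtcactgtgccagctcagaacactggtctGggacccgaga
A390G is in all 4 copies, and T300C is in 3 of them and not in Gm9625.

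Gm8730 is the closest copy of Rplp0, with 98.74% identity and 12 single-base differences over the coding sequence of 954 bases, stop codon included. Its alignment has no gap, and its frame reads through 317 codons, as in Rplp0. Gm9625 has 97.38% identity, 24 differences and 298 open codons from the start, and Gm14165 has 97.17% identity, 25 differences and 95 open codons. Gm6278 has 96.42% identity and 20 differences, and its alignment begins at coding position 213, so it does not reach the start codon. The last base of a codon held 10 of the 12 differences in Gm8730, 15 of 24 in Gm9625, 14 of 25 in Gm14165 and 12 of 20 in Gm6278. Of 60 distinct differences among these copies, 10 were in 2 or more of them, and 9 of the 12 in Gm8730 were shared with another copy. Between pairs of the copies, identity was 95.05% to 97.75% over the 666 coding positions that all 4 cover.

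**Figure D1:**
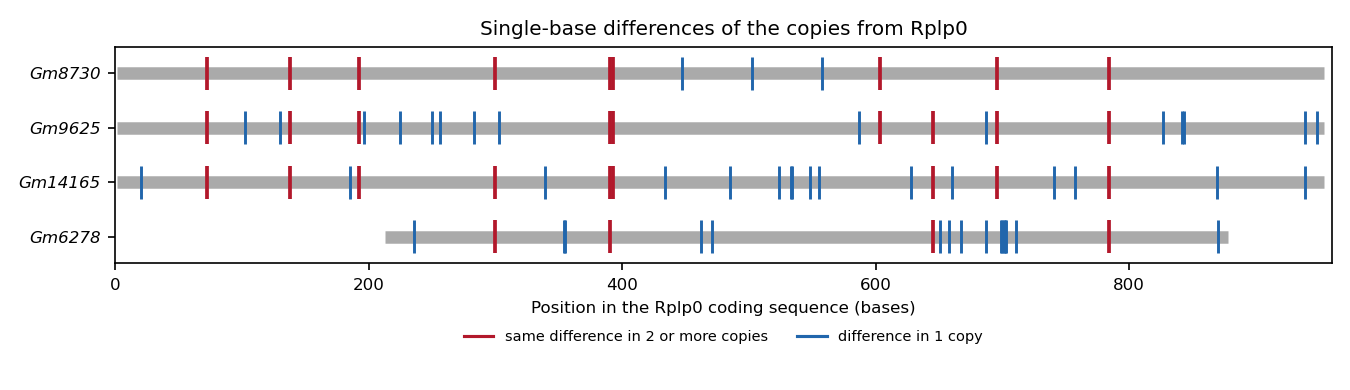
Positions of single-base differences from Rplp0 in the 4 copies, along the Rplp0 coding sequence in bases. Grey bars show the aligned part of each copy, red ticks differences found in 2 or more copies and blue ticks those in 1 copy; 9 of the 12 ticks of Gm8730 are red.

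Gm6472 is closer to its parent than any of these. The block shows positions 15 to 150 of the Rps7 coding sequence, counted in the same way, in Rps7, in Gm6472 and in Gm9493, another annotated copy of Rps7 that is not one of the 8 genes.
Rps7: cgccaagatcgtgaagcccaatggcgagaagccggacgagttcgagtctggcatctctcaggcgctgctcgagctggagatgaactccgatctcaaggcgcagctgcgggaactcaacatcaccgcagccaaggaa
Gm6472: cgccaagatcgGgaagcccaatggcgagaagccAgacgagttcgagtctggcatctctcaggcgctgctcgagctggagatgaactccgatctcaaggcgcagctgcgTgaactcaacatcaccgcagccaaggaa
Gm9493: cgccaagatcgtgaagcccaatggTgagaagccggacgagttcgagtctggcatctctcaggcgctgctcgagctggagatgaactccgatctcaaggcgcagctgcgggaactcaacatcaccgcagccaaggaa
Gm6472 differs from the Rps7 coding sequence of 585 bases by T26G, G48A and G123T and keeps 194 open codons, as in Rps7. Gm9493 differs by C39T, G317A and G375A. Of all 50-base stretches of the Gm6472 transcript, 77.9% occur unchanged in the Rps7 transcript, and of 100-base stretches 71.4%. The corresponding shares in the Rplp0 transcript were 39.4% and 9.2% for Gm8730, 31.1% and 11% for Gm9625 and for Gm6278, and 12.0% and 0% for Gm14165.

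Rab35 had 67.8, 55.3, 40.8 and 41.1 CPM in Yy1-/- Smc3+/- replicates 1 to 4, against 14.01, 18.9, 12.1 and 19.8 CPM in Yy1-/- and 15.1, 15.2, 14.3 and 22.1 CPM in Yy1+/+. CPM is the expected count scaled to a common library size, with TMM factors. All 4 Yy1-/- Smc3+/- libraries were above all 8 others, and the Yy1-/- and Yy1+/+ libraries overlapped. The means were 51.2 ± 12.9 CPM in Yy1-/- Smc3+/-, 16.2 ± 3.72 in Yy1-/- and 16.7 ± 3.62 in Yy1+/+ (SD, n = 4 each). The fitted log2 fold change was 1.66 ± 0.23 (SE) against Yy1-/- and 1.62 ± 0.23 against Yy1+/+, about 3.16-fold and 3.08-fold. Between Yy1-/- and Yy1+/+ it was -0.04 ± 0.23. On the deposited TPM scale, which divides by transcript length, Rab35 had 32.1, 28.7, 18.7 and 19.97 TPM in Yy1-/- Smc3+/- replicates 1 to 4, against 5.43 to 10.04 TPM in Yy1-/- and 7.02 to 12.6 TPM in Yy1+/+. Its expected count was a whole number in all 12 libraries, within a tolerance of 1e-06.

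Rplp0 was ordered differently. It had 1675, 1301, 1601 and 1556 CPM in Yy1-/- Smc3+/- replicates 1 to 4, against 2806, 1795, 2627 and 2236 CPM in Yy1-/- and 1437, 1610, 1297 and 1513 CPM in Yy1+/+. The Yy1-/- libraries were above all others, and the Yy1-/- Smc3+/- and Yy1+/+ libraries overlapped. The log2 fold change was -0.63 ± 0.15 (SE) for Yy1-/- Smc3+/- against Yy1-/-, 0.07 ± 0.15 for Yy1-/- Smc3+/- against Yy1+/+ and 0.69 ± 0.15 for Yy1-/- against Yy1+/+.

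Gm8730 had the highest level of the 5 copies in Yy1-/- Smc3+/-, whereas Gm6472 had it in the other 2 genotypes. Gm8730 had 409, 324, 334 and 367 CPM in Yy1-/- Smc3+/- replicates 1 to 4, against 14.7, 8.99, 14.4 and 11.1 CPM in Yy1-/- and 9.24, 13.8, 5.90 and 8.25 CPM in Yy1+/+. The lowest Yy1-/- Smc3+/- library was far above the highest of the 8 others, which overlapped. The log2 fold change was 4.87 ± 0.25 (SE) against Yy1-/- and 5.26 ± 0.26 against Yy1+/+, about 29.2-fold and 38.3-fold. In TPM, Gm8730 stood at 591 to 753 beside 1611 to 1898 for Rplp0 in the Yy1-/- Smc3+/- libraries. It stood at 16.3 to 25.15 TPM beside 1984 to 2817 for Rplp0 in Yy1-/-, and at 13.95 to 24.9 TPM beside 1784 to 2077 in Yy1+/+.

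Gm9625 had 87.3, 70.2, 72.6 and 84.2 CPM in Yy1-/- Smc3+/- replicates 1 to 4, against 1.83, 1.06, 1.48 and 1.58 CPM in Yy1-/- and 1.16, 2.08, 0.668 and 1.24 CPM in Yy1+/+. Its log2 fold change was 5.74 ± 0.27 (SE) against Yy1-/- and 5.89 ± 0.27 against Yy1+/+, the largest of the 8 genes in this fit. The remaining copies of Rplp0 were low in every group. Gm14165 had 237, 146, 122 and 184 expected counts in Yy1-/- Smc3+/- replicates 1 to 4, against 3, 1, 10 and 4 in Yy1-/- and 0, 10, 5 and 5 in Yy1+/+. Gm6278 had 101, 81, 92 and 116 expected counts in Yy1-/- Smc3+/- replicates 1 to 4, against 5, 3, 8 and 1 in Yy1-/- and 13, 3, 1 and 5 in Yy1+/+. For neither did the Yy1-/- Smc3+/- libraries overlap the others, and their log2 fold changes against Yy1-/- were 5.29 ± 0.49 for Gm14165 and 4.56 ± 0.5 for Gm6278. Against Yy1+/+ they were 5.37 ± 0.47 for Gm14165 and 4.43 ± 0.47 for Gm6278, and the few counts outside the Yy1-/- Smc3+/- libraries limit the precision of all 4 values.

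Rps7, like Rplp0, was highest in the Yy1-/- libraries, and its Yy1-/- Smc3+/- and Yy1+/+ libraries overlapped. It had 553, 472, 542 and 492 CPM in Yy1-/- Smc3+/- replicates 1 to 4, against 983, 597, 909 and 708 CPM in Yy1-/- and 574, 488, 500 and 585 CPM in Yy1+/+. The log2 fold change was -0.63 ± 0.15 (SE) for Yy1-/- Smc3+/- against Yy1-/-, -0.06 ± 0.15 for Yy1-/- Smc3+/- against Yy1+/+ and 0.57 ± 0.15 for Yy1-/- against Yy1+/+. Its copy Gm6472 had 155, 128, 139 and 132 CPM in Yy1-/- Smc3+/- replicates 1 to 4, against 26.6, 14.7, 25.8 and 19.2 CPM in Yy1-/- and 18.7, 20.8, 10.7 and 16.3 CPM in Yy1+/+. The Yy1-/- Smc3+/- libraries of Gm6472 were above all others, by a log2 fold change of 2.69 ± 0.23 against Yy1-/- and 3.06 ± 0.23 against Yy1+/+. Gm6472 is the only X-linked gene of the 8, and sex-linked transcripts were uneven over the libraries. Xist, which is transcribed from an inactive X, stood at 0, 3.58, 107 and 0 CPM in Yy1-/- Smc3+/- replicates 1 to 4, against 33.9 to 92.8 CPM in Yy1-/- and 31.2 to 113 CPM in Yy1+/+. Ddx3y, a Y-linked gene, stood at 8.66 to 25.4 CPM in all 4 Yy1-/- Smc3+/- libraries. It was at 8.62 CPM in 1 Yy1-/- library and 0 in the other 3, and at 35.1 and 37.9 CPM in 2 Yy1+/+ libraries and 0 in the other 2. The mean of Ddx3y was 19.5 CPM in Yy1-/- Smc3+/-, 2.15 CPM in Yy1-/- and 18.2 CPM in Yy1+/+. Several libraries, Yy1-/- Smc3+/- replicate 3 among them, held both transcripts. The part of sex in the levels of the 8 genes was not tested.

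**Figure D2:**
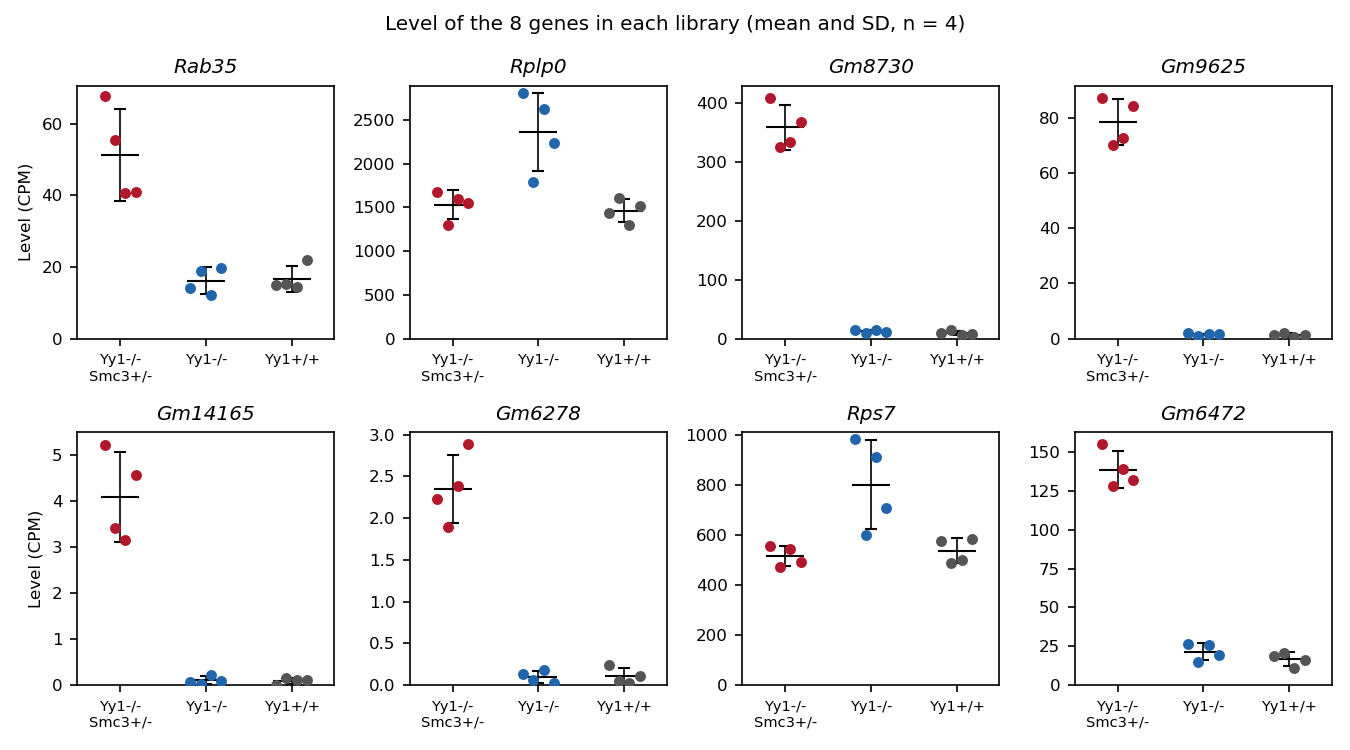
Level of each of the 8 genes in CPM (linear axes from 0) in every library of the 3 genotypes, with points for libraries and bars for the mean and SD (n = 4). Rab35 and the 5 copies are highest in all 4 Yy1-/- Smc3+/- libraries, whereas Rplp0 and Rps7 are highest in Yy1-/-.

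Over the 8 genes, 6 were higher without overlap in Yy1-/- Smc3+/- than in Yy1-/-, where 1.13% of all tested genes were, and 2, Rplp0 and Rps7, were lower without overlap, where 0.883% were. The same 6 were higher without overlap than in Yy1+/+, beside 14.7% of all tested genes, and none was lower without overlap, beside 17.6%. Between Yy1-/- and Yy1+/+, Rplp0 and Rps7 were higher without overlap, beside 13.4% of all tested genes, and none was lower without overlap, beside 17.5%. These counts come from the contrasts that chose the genes, so nothing is read from them. In all, 46 tested genes, or 0.276%, had all 4 Yy1-/- Smc3+/- libraries above all 8 others, and 6 of the 46 are described here.

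Because reads are shared, each parent was also summed with its copies. The 4 copies held 22.5% ± 1.37 of the counts of Rplp0 and its copies in Yy1-/- Smc3+/-, 0.586% ± 0.0253 in Yy1-/- and 0.718% ± 0.201 in Yy1+/+ (SD, n = 4 each). The libraries ranged from 20.5% to 23.5% in Yy1-/- Smc3+/-, from 0.562% to 0.617% in Yy1-/- and from 0.514% to 0.987% in Yy1+/+. The sum of Rplp0 and its copies was 1977 ± 200 CPM in Yy1-/- Smc3+/-, 2380 ± 452 CPM in Yy1-/- and 1475 ± 135 CPM in Yy1+/+. Fitted as 1 gene, its log2 fold change was -0.27 against Yy1-/- and 0.42 against Yy1+/+, beside -0.63 and 0.07 for Rplp0 alone. Gm6472 held 21.2% ± 0.623 of the counts of Rps7 and Gm6472 in Yy1-/- Smc3+/-, 2.61% ± 0.146 in Yy1-/- and 3.01% ± 0.839 in Yy1+/+. Their sum was 653 ± 49.8 CPM in Yy1-/- Smc3+/-, 821 ± 183 CPM in Yy1-/- and 553 ± 50.5 CPM in Yy1+/+, with log2 fold changes of -0.33 against Yy1-/- and 0.24 against Yy1+/+. The copies' shares of both sums were thus close to each other in Yy1-/- Smc3+/- and lay in a narrow range over its 4 libraries.

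**Figure D3:**
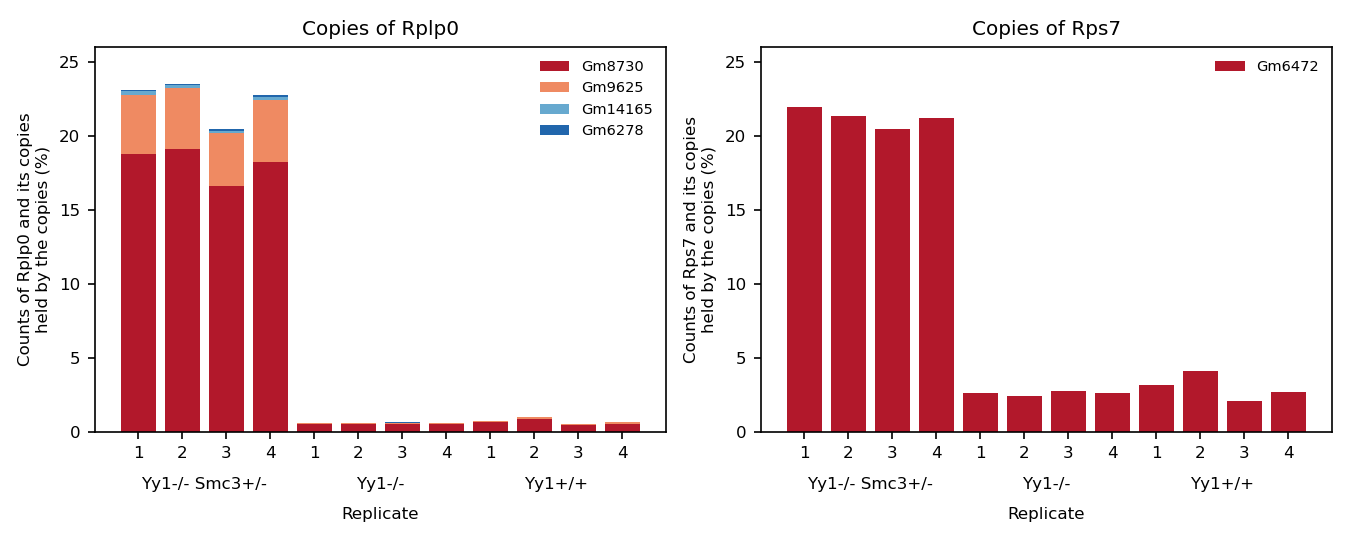
Percent of the counts of a parent and its copies that the copies hold, in each library (bars from 0), with replicates grouped by genotype. In Yy1-/- Smc3+/- the copies hold 20.5% to 23.5% for Rplp0 and 20.4% to 21.9% for Rps7, and in the other 8 libraries less than in any of these.

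The copies did not keep their proportions to one another. Gm8730 had 4.56 ± 0.14 counts per count of Gm9625 in Yy1-/- Smc3+/-, 8.30 ± 1.15 in Yy1-/- and 7.54 ± 1.09 in Yy1+/+ (SD, n = 4 each). The highest ratio in Yy1-/- Smc3+/- was 4.68, and the lowest in the other groups was 6.63. The length that RSEM gives a gene, which is weighted over its transcripts, also differed for Gm6472. It was 623 to 629 bases in Yy1-/- Smc3+/-, 641 to 651 in Yy1-/- and 651 in every Yy1+/+ library. With the listed transcripts of 651 and 582 bases, these lengths correspond to a share of the shorter one of 32.5% to 40.3% in Yy1-/- Smc3+/-, 0% to 15% in Yy1-/- and 0% in Yy1+/+. Expected counts were whole numbers in none of the 12 libraries for Rplp0, Gm9625 and Gm6472, in 1 of 12 for Gm8730, Gm6278 and Rps7, and in 6 of 12 for Gm14165.

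Among all annotated copies of the 2 parents, high levels were not shared by all close copies. Copies were taken as pseudogenes that align with the parent over at least 300 bases at 85% identity or more, which gave 10 for Rplp0 and 24 for Rps7. The 4 copies of Rplp0 described above are the 4 with the highest identity. The next, Rplp0-ps1 at 94.2%, had at most 3 counts in a library, and 3 of the other 6 were at 0 in all libraries. For Rps7, Gm9493 has 99.47% identity, slightly above the 99.39% of Gm6472, yet it had 28 to 49 counts in Yy1-/- Smc3+/-, 82 to 123 in Yy1-/- and 56 to 132 in Yy1+/+. Its log2 fold change for Yy1-/- Smc3+/- against Yy1-/- was -1.36 ± 0.36 (SE, edgeR adjusted p = 0.601). AC121967.1, at 98.62% identity, had 5 to 11 counts in Yy1-/- Smc3+/- and 13 to 23 in Yy1-/-. Its log2 fold change there was -1.31 ± 0.47 (edgeR adjusted p = 0.756). Gm28530, at 97.02% identity, was at 0.33 ± 0.49 in the same comparison (edgeR adjusted p = 0.924). Gm7285, at 96.56% identity, had 2.40 to 4.45 CPM in Yy1-/- Smc3+/-, 2.19 to 4.44 in Yy1-/- and 1.75 to 2.68 in Yy1+/+, with a log2 fold change of -0.1 ± 0.32 against Yy1-/- (edgeR adjusted p = 0.971). Of the 23 copies of Rps7 other than Gm6472, 17 were at 0 in all libraries.

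**Figure D4:**
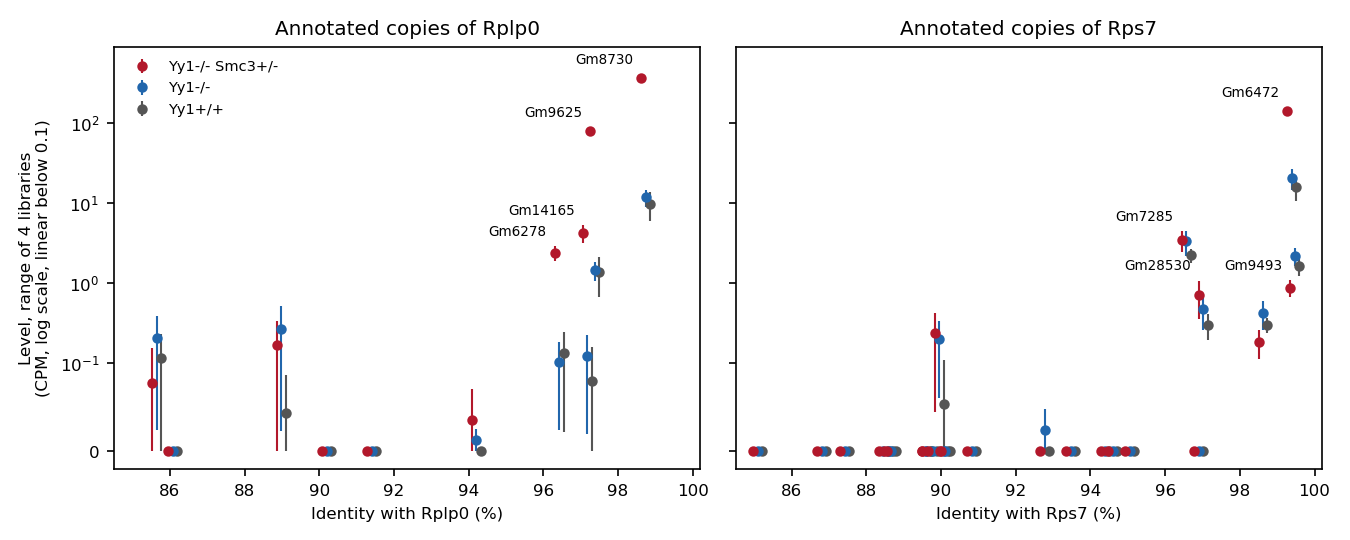
Level in CPM (log axis, linear below 0.1) against percent identity with the parent for the 10 annotated copies of Rplp0 and the 24 of Rps7. Points are the middle and bars the range of 4 libraries of a genotype, drawn side by side for legibility; Gm9493 lies beside Gm6472 in identity but far below it in level in Yy1-/- Smc3+/-.

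Between Yy1-/- Smc3+/- and Yy1-/-, the tested genes beside Rab35 had smaller differences than Rab35, and none of them passed the test. Rab35 was chosen by its rise in these libraries, so a smaller difference in its neighbours was likely beforehand and nothing is read from it. Of 7 other protein-coding genes within 250 kb, 5 passed the filter on low counts, and Pla2g1b and Msi1 were at 0 in every library. All 5 had positive log2 fold changes in that comparison, 0.19 to 0.56 with a median of 0.5, beside 0 for all tested genes and 1.66 for Rab35. The edgeR quasi-likelihood test with Benjamini-Hochberg adjustment called 0 of the 5, with 2 at an unadjusted p under 0.05 and 0 called by DESeq2 or by limma. Of all 16649 tested genes, 1076 had an unadjusted p under 0.05 there. EdgeR called only 0.036% of them, so a count of 0 in this comparison does not show that levels were alike. Bicdl1, an adaptor for dynein, ends 439 bases after Rab35 on the opposite strand. It had 25.5 ± 2.94 CPM in Yy1-/- Smc3+/- and 22.2 ± 4.5 CPM in Yy1-/-, against 11.3 ± 2.04 CPM in Yy1+/+ (SD, n = 4 each). Against Yy1+/+, Bicdl1 rose by 1.18 ± 0.2 (log2, SE) in Yy1-/- Smc3+/- and by 0.98 ± 0.2 in Yy1-/- (adjusted p by edgeR 0.000765 and 0.00221). Gcn1l1, an activator of the kinase Gcn2, lies 9254 bases before Rab35 and had log2 fold changes of 0.5 ± 0.35 against Yy1-/- (edgeR adjusted p = 0.831) and -0.14 ± 0.35 against Yy1+/+ (edgeR adjusted p = 0.787). Pxn, the focal adhesion protein paxillin, had 0.56 ± 0.21 and 0.08 ± 0.21 in the same comparisons (edgeR adjusted p = 0.756 and 0.809).

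**Figure D5:**
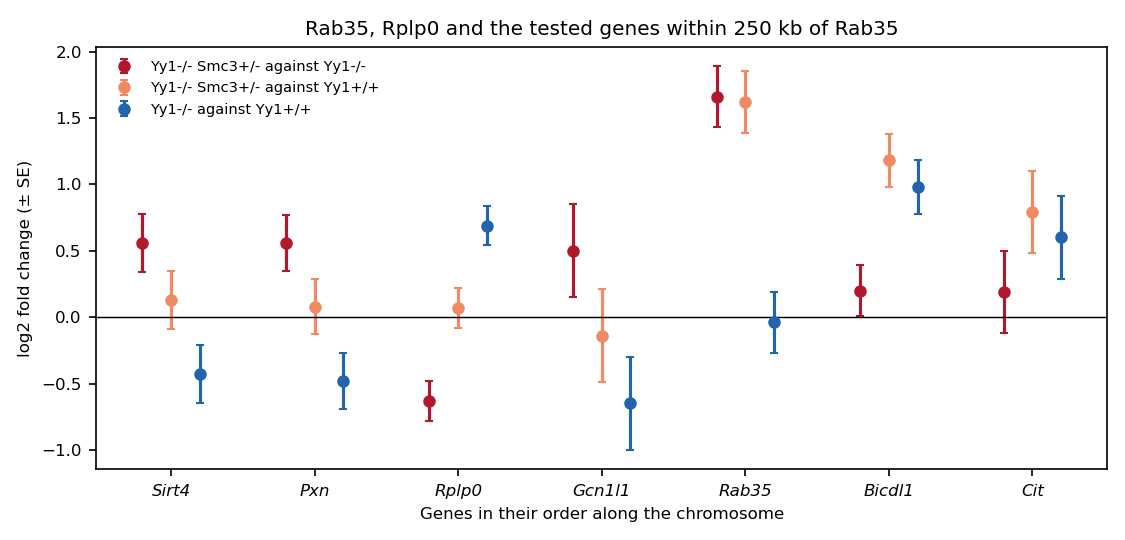
Log2 fold changes (points) with SE (bars) of Rab35, Rplp0 and the 5 tested genes within 250 kb of Rab35, in their order along the chromosome, for the 3 comparisons. Rab35 lies at 1.66 and 1.62 in the comparisons of Yy1-/- Smc3+/-, and Bicdl1 at 0.2 against Yy1-/- and 1.18 against Yy1+/+.

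Genes that act on Rab35 did not pass the test between Yy1-/- Smc3+/- and Yy1-/-. The lists of 17 exchange factors, GTPase-activating proteins and membrane-extraction factors and of 12 effectors each had 0 genes called by edgeR, 0 at an unadjusted p under 0.05 and 0 by DESeq2. Their median log2 fold changes were 0.05 and 0.06, beside 0 for all tested genes. Of all 16649 tested genes, 1076 had an unadjusted p under 0.05 there. EdgeR called only 0.036% of them, so a count of 0 does not show that levels were alike. Against Yy1+/+, where edgeR called 29.9% of all tested genes, 13.1% higher and 16.7% lower in Yy1-/- Smc3+/-, 0 of the 17 regulators rose and 2 fell, with 1 higher and 4 lower at an unadjusted p under 0.05 and 0 higher and 2 lower by DESeq2. Flcn, folliculin, fell to 79.4 ± 12.6 CPM in Yy1-/- Smc3+/- and 84.7 ± 18.9 CPM in Yy1-/-, against 149 ± 16.8 CPM in Yy1+/+ (SD, n = 4 each). Its log2 fold changes against Yy1+/+ were -0.91 ± 0.17 in Yy1-/- Smc3+/- and -0.81 ± 0.17 in Yy1-/- (edgeR adjusted p = 0.00153 and 0.0025). Of the 17, 1 rose and 3 fell in Yy1-/- against Yy1+/+, beside 35.2% called, 16.3% higher and 18.8% lower, over all tested genes. Gdi2 was the 1 that rose (0.45 ± 0.1, edgeR adjusted p = 0.00497). With limma on log2 TPM, 0 of the 17 rose and 5 fell there.

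Of the 12 effectors, 2 rose and 4 fell in Yy1-/- Smc3+/- against Yy1+/+, beside 13.1% and 16.7% of all tested genes. In Yy1-/- against Yy1+/+, 1 rose and 4 fell, beside 16.3% and 18.8%. Fscn1, the actin-bundling protein fascin, had 0.998 ± 0.668 CPM in Yy1-/- Smc3+/- and 0.344 ± 0.378 CPM in Yy1-/-, against 8.46 ± 0.91 CPM in Yy1+/+ (SD, n = 4 each). Ehd3, a membrane-remodelling ATPase of endosomes, had 3.6 ± 2.91 CPM in Yy1-/- Smc3+/- and 4.76 ± 2.34 CPM in Yy1-/-, against 23.8 ± 5.14 CPM in Yy1+/+. Both fell against Yy1+/+ in both mutant groups, with edgeR adjusted p between 5.62e-05 and 0.00347. Mical1, which oxidises actin, rose by 0.82 ± 0.17 (log2, SE) in Yy1-/- Smc3+/- against Yy1+/+, with an edgeR adjusted p of 0.00333. With limma on log2 TPM, 0 of the 12 effectors rose and 4 fell in that comparison, and 0 rose and 5 fell in Yy1-/- against Yy1+/+. Of 58 other Rab genes 54 were tested. Between Yy1-/- Smc3+/- and Yy1-/- edgeR called 0 of them, beside 0.036% of all tested genes, and DESeq2 called 0. At an unadjusted p under 0.05 there were 7 (3 higher and 4 lower), beside 1076 of all 16649 tested genes. Against Yy1+/+, 5 of the 54 rose and 12 fell in Yy1-/- Smc3+/-, beside 13.1% and 16.7% of all tested genes. In Yy1-/-, 9 rose and 12 fell, beside 16.3% and 18.8%. Without Yy1-/- Smc3+/- replicate 1, the 17 calls in Yy1-/- Smc3+/- became 11. Rab38, known from pigment cell organelles, had 61.5 ± 12.4 CPM in Yy1-/- Smc3+/- and 60.1 ± 17.1 CPM in Yy1-/-, against 186 ± 14 CPM in Yy1+/+.

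Against Yy1+/+, most ribosomal protein genes that passed the edgeR test were higher in the mutant groups, in numbers that depended on the libraries and the scale. Of 80 tested genes for other ribosomal proteins, 42 rose and 1 fell in Yy1-/- Smc3+/- against Yy1+/+, beside 13.1% and 16.7% of all tested genes. Their median log2 fold change was 0.44, beside 0.02 for all tested genes. In Yy1-/- against Yy1+/+, 68 rose and 0 fell, beside 16.3% and 18.8% of all tested genes. At an unadjusted p under 0.05 or by DESeq2 also 0 fell, and the median was 0.72 beside 0.01. Between Yy1-/- Smc3+/- and Yy1-/- edgeR called 0 of the 80, beside 0.036% of all tested genes, and DESeq2 called 0. At an unadjusted p under 0.05, 7 were lower and 0 higher, beside 1076 of all 16649 tested genes. The median of the 80 was -0.27. Rplp0 and Rps7 alone were each at -0.63, and summed with their copies they were at -0.27 and -0.33. With limma on log2 TPM the 42 and 68 rises became 12 and 33, with 1 lower in each comparison. The 43 calls in Yy1-/- Smc3+/- became 25 to 28 without Yy1-/- Smc3+/- replicate 1, 3 or 4 or without Yy1+/+ replicate 1 or 3. Rpl27 had 469 ± 41.9 CPM in Yy1-/- Smc3+/- and 542 ± 108 CPM in Yy1-/-, against 243 ± 22.4 CPM in Yy1+/+ (SD, n = 4 each).

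In the stalk list, Rplp1, an acidic stalk protein bound by Rplp0, had 360 ± 30.9 CPM in Yy1-/- Smc3+/- and 421 ± 80.4 CPM in Yy1-/-, against 230 ± 46.7 CPM in Yy1+/+ (SD, n = 4 each). Of the 6 genes of that list, 2 rose in Yy1-/- Smc3+/- and 5 rose in Yy1-/- against Yy1+/+, beside 13.1% and 16.3% of all tested genes. In either comparison 0 fell, also at an unadjusted p under 0.05 or by DESeq2. The rises in Yy1-/- Smc3+/- were those of Rplp1, by 0.65 ± 0.17 (log2, SE), and Rplp2, by 0.5 ± 0.17 (adjusted p by edgeR 0.0115 and 0.041), and the count became 1 when any of 9 single libraries was left out and 0 with limma on log2 TPM. The Mdm2 list, which Rps7 belongs beside, holds Mdm2, Mdm4, Trp53 and genes of ribosomal proteins that bind Mdm2. Those ribosomal genes, like Rplp1, Rplp2 and Rpl12 of the stalk list, are also among the 80 above, so the lists are not separate. Of the 12 genes of the Mdm2 list, 3 rose and 1 fell in Yy1-/- Smc3+/- against Yy1+/+, where 13.1% of all tested genes rose and 16.7% fell. These 4 are the ribosomal protein genes Rps27l, Rpl11 and Rps14, which rose, and Rps27, which fell. In Yy1-/- 8 of the 12 rose, beside 16.3%. The median log2 fold changes of the Mdm2 list were 0.33 in Yy1-/- Smc3+/- and 0.58 in Yy1-/-, beside 0.02 and 0.01 for all tested genes. The 4 calls in Yy1-/- Smc3+/- became 2 with limma on log2 TPM or without Yy1-/- Smc3+/- replicate 2 or 4 or Yy1+/+ replicate 1 or 4, and 6 without Yy1-/- replicate 2, and the 8 in Yy1-/- became 4 with limma (3 higher and 1 lower). Rps27l, a close relative of Rps27, rose by 1.16 ± 0.16 in Yy1-/- Smc3+/- and by 1.47 ± 0.17 in Yy1-/- (edgeR adjusted p = 0.000252 and 4.55e-05), and Rps27 fell in Yy1-/- Smc3+/- (-0.66 ± 0.2, edgeR adjusted p = 0.0226). Trp53, which encodes p53, had log2 fold changes of 0.24 ± 0.13 in Yy1-/- Smc3+/- and 0.11 ± 0.13 in Yy1-/- against Yy1+/+ (edgeR adjusted p = 0.205 and 0.536).

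Copies of ribosomal protein genes that are named with a -ps suffix did not differ in this way between the mutant groups beyond the threshold. This list leaves out copies with a Gm name. It includes Rplp0-ps1 and Rps7-ps1, which did not pass the filter on low counts. As edgeR called only 0.036% of all tested genes in this comparison, a count of 0 does not show that levels were alike. Of 294 annotated with the name of a ribosomal protein gene and a -ps suffix, 54 passed the filter. Between Yy1-/- Smc3+/- and Yy1-/- edgeR and DESeq2 each called 0 of these. At an unadjusted p under 0.05 there were also 0, beside 1076 of all 16649 tested genes. The median log2 fold change of the 54 was -0.17. The summed level of the 294 was 300.4 to 367 CPM in Yy1-/- Smc3+/-, 285 to 485 CPM in Yy1-/- and 191 to 356 CPM in Yy1+/+. Rps6-ps4, with the highest mean among those tested, had 69.2 ± 7.39 CPM in Yy1-/- Smc3+/- and 80.5 ± 24.6 CPM in Yy1-/-, against 60.4 ± 25.2 CPM in Yy1+/+ (SD, n = 4 each). Rpl27-ps3 was the 1 copy of the 54 that rose in Yy1-/- Smc3+/- against Yy1+/+, beside 13.1% of all tested genes. It rose by 1.13 ± 0.25 (log2, SE) with an edgeR adjusted p of 0.00436, and without Yy1+/+ replicate 2 there were 5 such copies. In Yy1-/- against Yy1+/+, 11 of the 54 rose, beside 16.3% of all tested genes, and without Yy1-/- replicate 1 or 3 there were 3.

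Likeness to Rab35 over the 12 libraries is a description, since the values compared are those that chose the genes. In log2 CPM, of 16648 other tested genes, Gm9625 had the highest Pearson correlation with Rab35 at 0.927, followed by Gm8730 at 0.916 and, in place 3, by Dazap1 at 0.897. Gm6472 at 0.893, Gm14165 at 0.891 and Gm6278 at 0.861 were in places 4, 5 and 7. Rplp0 stood at -0.416 and Rps7 at -0.518. Of genes with a symbol of their own, the most alike were Dazap1 (0.897), Med25 (0.847), Sh2d5 (0.832), Ppp2cb (0.828) and Cgnl1 (0.816). By Spearman's rho, which uses ranks alone, Dazap1 was in place 2 at 0.923, while the copies lay between place 128 (Gm9625, 0.671) and place 569 (Gm8730, 0.538). By rho Sh2d5 was in place 54 and Cgnl1 in place 383. With Pearson's correlation of log2(TPM + 0.5), Dazap1 was in place 32 at 0.774, while the copies lay between place 2 (Gm9625, 0.894) and place 8 (Gm6278, 0.856). The places thus depended on the measure. Dazap1, an RNA-binding protein, had 70.7 ± 9.96 CPM in Yy1-/- Smc3+/- and 54.8 ± 7.23 CPM in Yy1-/-, against 55.2 ± 4.48 CPM in Yy1+/+ (SD, n = 4 each), a far smaller step than that of Rab35.

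The promoter windows of RefSeq, 250 bases before to 50 after the start of each gene, were searched on both strands for AAGATGGC, a form of the motif bound by Yy1. It was in 2.75% of 32851 windows and in none of those of Rab35, Rplp0 and Rps7, which says only that these letters are not in these windows.

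The summed expected count was 38671354 to 69086104 per library, and the PCR reads carry no molecular identifiers. Yy1 mRNA was 1.74 ± 1.81 CPM in Yy1-/- Smc3+/- and 4.65 ± 5.43 CPM in Yy1-/-, against 35.8 ± 3.63 CPM in Yy1+/+ (SD, n = 4 each), and Yy1-/- Smc3+/- replicate 3 and Yy1-/- replicates 3 and 4 kept the most. Smc3 mRNA stood at 301 ± 38.1 CPM in the libraries labelled Yy1-/- Smc3+/-, against 255 ± 45.2 CPM in Yy1-/- and 177 ± 25.2 CPM in Yy1+/+. The mRNA therefore does not set the Smc3+/- label apart, and the group is named as labelled. The 8 LSK markers were all detected and summed to 1695 to 2028 CPM in Yy1-/- Smc3+/-, 1678 to 1963 CPM in Yy1-/- and 2364 to 2994 CPM in Yy1+/+. Against Yy1+/+, 5 of the 8 fell in Yy1-/- Smc3+/- and 6 in Yy1-/-, beside 16.7% and 18.8% of all tested genes, and 0 rose in either. Kit, which encodes the c-Kit of the sort, was among those that fell. Ly6a, which encodes Sca1, was not, with log2 fold changes of 0.3 ± 0.26 and 0.43 ± 0.26 (SE, edgeR adjusted p = 0.414 and 0.215). Cd34 was not called either (edgeR adjusted p = 0.983 and 0.772). The 23 markers of other marrow cells were also all detected, at 4630 to 16885 CPM in Yy1-/- Smc3+/-, 4908 to 10055 CPM in Yy1-/- and 4505 to 14028 CPM in Yy1+/+, and Mpo alone reached 10068 CPM in 1 Yy1-/- Smc3+/- library. Against Yy1+/+, 5 of the 23 rose and 2 fell in Yy1-/- Smc3+/-, beside 13.1% and 16.7% of all tested genes. In Yy1-/-, 4 rose and 2 fell, beside 16.3% and 18.8%, and the median log2 fold changes of the 23 were 0.72 and 0.73. Between the mutant groups edgeR called 0 of the 23 (3 higher and 2 lower at an unadjusted p under 0.05, and 0 by DESeq2). Over all 16649 tested genes edgeR called 0.036% there, and 1076 had an unadjusted p under 0.05. The T cell markers Cd3e, Cd3g and Trac rose in both mutant groups, by log2 fold changes of 5.07, 3.21 and 5.6 in Yy1-/- Smc3+/- and 5.22, 3.76 and 6.12 in Yy1-/- (edgeR adjusted p between 0.00122 and 0.0048). Cd3e had 0.86 to 7.43 CPM in Yy1-/- Smc3+/- and 0.678 to 8.79 CPM in Yy1-/-, against 0 to 0.284 CPM in Yy1+/+. The B cell markers Cd79a and Ebf1 rose in Yy1-/- Smc3+/- (edgeR adjusted p = 0.0277 and 0.00869), and Prg2 of eosinophils fell in both mutant groups. The part of these markers in the levels above was not tested, and in sorted cells fewer cells of a type and less RNA per cell cannot be told apart.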

How the data were processed

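The 12 libraries, 4 for each of 3 genotypes, hold RNA of sorted LSK cells and were prepared with a SMART-Seq kit, per the labels' protocols. Such libraries do not mark the strand. Per the submitters' processing notes the tools were STAR 2.5.2b and RSEM 1.3.0 with the build mm10, and no settings or annotation release were stated there. The deposited expected count is the estimated number of fragments of a gene, with fragments that match several genes divided between them, per the file headers. The deposited TPM is scaled by length and to a common sum, and the deposited length is weighted over the transcripts of a gene, per the file headers. Symbols came from GENCODE M21, which matched 55394 of 55487 genes.

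Rounded expected counts entered edgeR 4.0.16 (R 4.3.3). Its low-count filter used 10 as the smallest count and 15 as the smallest total. The fit used TMM factors and 1 quasi-likelihood model of the 3 genotypes. Genes were called at a Benjamini-Hochberg adjusted p under 0.05 over all 16649 genes tested. The test was tried on simulated counts. Alternatives used DESeq2 1.42.0, limma 3.58.1 on log2(TPM + 0.5), other size factors, no filter, fits of 2 genotypes, each library left out, and each parent summed with its copies. Copies were aligned with blastn 2.17.0.

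The genes named are the 8 described; up to 4 called genes with the smallest p per list and comparison, or up to 3 with the highest mean where none was called; tested neighbours of Rab35 within 100 kb; and the 5 named genes most correlated with Rab35. Other copies of Rplp0 and Rps7, Ocrl, Xist, Ddx3y, markers of other cells, and the motif were chosen after values were seen. The 8 genes and the lists were chosen with earlier results of these data known. The labels do not say that each library is another animal, so p-values measure only the spread between these libraries. Some genes that the naming rule selects are not reported here.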

Additional observations from a re-analysis of the deposited data

Results flagged for a closer look

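In groups of 4 libraries, 219 sets of values were examined for 1 library far from the other 3, and 10 were found, where chance gives about 1 in 20. Rab35 had 22.1 CPM in 1 Yy1+/+ library, against 14.3 to 15.2 CPM in the other 3. Pxn had 142 CPM in 1 Yy1-/- library and 97.2 CPM in 1 Yy1+/+ library, the highest and the lowest of their groups. Bicdl1 had 21.2 CPM in 1 Yy1-/- Smc3+/- library, the lowest of its group. Cit had 43.9 CPM and Arf6 had 431 CPM in 1 Yy1+/+ library each, the highest of that group. Rab2a had 321 CPM and Rpl27 had 531 CPM in 1 Yy1-/- Smc3+/- library each, the highest of that group. Cgnl1 had 0.112 CPM in 1 Yy1-/- library and 0.0474 CPM in 1 Yy1+/+ library, with 0 in the other 3 of each group.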

How the results depend on the processing

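Rab35 and the 5 copies were chosen by these same values, and their Yy1-/- Smc3+/- libraries overlapped no others. Leaving out a library could therefore hardly reverse a direction, and the ranges below only describe the size of the differences. The direction of their log2 fold changes was kept in both comparisons of Yy1-/- Smc3+/- under all 19 alternatives, with Rab35 at 1.5 to 1.76 against Yy1-/- and 1.38 to 1.78 against Yy1+/+. The copies ranged over 4.74 to 4.96 and 5.1 to 5.52 for Gm8730, 5.57 to 5.84 and 5.59 to 6.25 for Gm9625, and 2.54 to 2.87 and 2.9 to 3.19 for Gm6472. On log2(TPM + 0.5) with limma, Gm14165 was at 3.57 and 3.55 and Gm6278 at 3.16 and 3.07 against Yy1-/- and Yy1+/+, and the pseudocount understates the change of such low genes. Leaving out 1 library gave 4.9 to 6.0 for Gm14165 against Yy1-/- (6.0 without Yy1-/- replicate 3) and 4.12 to 5.26 for Gm6278 against Yy1+/+ (5.26 without Yy1+/+ replicate 1). Rplp0 and Rps7 moved with the scale. Summed with their copies they were at -0.27 and -0.33 against Yy1-/- and at 0.42 and 0.24 against Yy1+/+ for Yy1-/- Smc3+/-. With limma on TPM they were at -0.12 and -0.23 for Yy1-/- Smc3+/- and at 0.4 and 0.3 for Yy1-/-, both against Yy1+/+, on a scale where the median of all tested genes lay at -0.13 for Yy1-/- Smc3+/- and -0.21 for Yy1-/-. Without the 3 libraries with residual Yy1 reads, chosen after seeing the data, Gm14165 was at 6.53 for Yy1-/- Smc3+/- against Yy1-/- and at -1.09 for Yy1-/- against Yy1+/+. Between Yy1-/- Smc3+/- and Yy1-/-, 6 genes were called by edgeR, 53 by DESeq2 and 311 without those 3 libraries, 1 of them another Rab gene. All of the 6, and 8 of the 53, are genes described here, which were chosen by their levels, so nothing is read from their calls. The cause of the differences between these counts was not tested.

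Counts of called list genes for Yy1-/- Smc3+/- against Yy1+/+ changed as follows. With limma on TPM they were 4 Rab35 regulators (2 in the edgeR fit), 0 stalk genes (2), 2 of the Mdm2 list (4), 13 ribosomal protein genes (43) and 5 ribosomal copies (1). DESeq2 called 2 ribosomal copies, a fit of only the 2 genotypes 2 neighbours of Rab35 (1), and no filter or the older quasi-likelihood fit 1 stalk gene. Without the 3 libraries with residual Yy1 reads there were 1 stalk gene and 22 ribosomal protein genes. Leaving out each library in turn gave 2 to 4 regulators (4 without Yy1-/- Smc3+/- replicate 2), 1 to 3 stalk genes, 2 to 6 of the Mdm2 list (2 without Yy1-/- Smc3+/- replicate 2 or 4 or Yy1+/+ replicate 1 or 4, and 6 without Yy1-/- replicate 2), 11 to 18 Rab genes (17), 25 to 47 ribosomal protein genes, 1 to 5 ribosomal copies and 1 to 2 neighbours (2 without Yy1-/- replicate 1 or Yy1+/+ replicate 3). For Yy1-/- against Yy1+/+, limma on TPM called 3 stalk genes (5), 4 of the Mdm2 list (8), 34 ribosomal protein genes (68) and 3 neighbours (1). Without the 3 libraries there were 2 stalk genes, 5 of the Mdm2 list, 44 ribosomal protein genes and 2 ribosomal copies (11). No filter gave 5 ribosomal copies and a fit of only the 2 genotypes 4, and leaving out each library gave 3 to 15 ribosomal copies and 1 to 3 neighbours (2 or 3 without Yy1-/- replicate 1 or 2 or Yy1+/+ replicate 2). No paired analysis was possible because the labels give no replicate numbers that link libraries of different genotypes. The division of reads between near-identical copies, few counts of Gm14165 and Gm6278 outside Yy1-/- Smc3+/-, and 4 libraries per group limit the precision.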
